A study of Mus musculus with 6 samples.

Results

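Retinoid synthesis and signalling was described through 9 genes, chosen by name among the 41786 gene symbols counted. They are the uptake receptor gene *Stra6*, the retinol and retinaldehyde enzyme genes *Rdh10* and *Dhrs3*, the retinaldehyde dehydrogenase genes *Aldh1a1*, *Aldh1a2* and *Aldh1a3*, the retinoic acid carrier genes *Crabp1* and *Crabp2*, and the receptor gene *Rarb*. All 9 were counted in every library and passed the filter on low counts. The tissue was endometriosis-like lesions of female C57BL/6 mice, in which uterus from B6-GFP positive donors (6 weeks old) had been sutured onto the peritoneal wall of wild-type recipients (8 weeks old) at a matched stage of the estrous cycle. Treatment began after 3 days. The niclosamide group (3 libraries) received 200 mg/kg of body weight daily for 3 weeks, and the vehicle group (3 libraries) received vehicle daily for 3 weeks. Niclosamide is an anthelmintic drug. Recipients were examined in diestrus, and the uterine-derived tissue was taken apart from recipient tissue before RNA extraction. Vehicle 1 was RNA pooled from 4 mice whereas every other library represents 1 mouse. The model therefore holds donor uterine cells together with whatever recipient cells had entered the lesion. The uterine transcription factor gene *Hoxa10* was present in all libraries, at 55.2, 62.5 and 334 CPM (the count relative to the TMM-scaled library size) in niclosamide 1 to 3 and at 113, 155 and 206 CPM in vehicle 1 to 3.

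Retinol (vitamin A) travels in blood on retinol-binding protein, and STRA6 takes it into cells. Inside the cell RDH10 oxidizes retinol to retinaldehyde and DHRS3 reduces it back, and ALDH1A enzymes convert retinaldehyde irreversibly to retinoic acid. CRABP proteins carry retinoic acid in the cytoplasm, retinoic acid receptors paired with RXR partners bind DNA and switch genes on, and CYP26 hydroxylases clear the acid. *Rarb*, *Stra6*, *Dhrs3* and *Crabp2* are themselves known to be induced by retinoic acid. In the uterus the pathway is known for its role in stromal decidualization and for its control by ovarian steroids.

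Libraries held 27797121 to 34797000 counted reads. The test was the quasi-likelihood test of edgeR, and p values were adjusted by Benjamini-Hochberg over the 17364 genes that passed the filter, with a threshold of 0.05. No gene passed (0 of 17364, 0%), while 1202 genes (6.92%) had an unadjusted edgeR p under 0.05, and DESeq2 called 178 of 17670 genes (1.01%). Accordingly 0 of the 9 retinoid genes passed, with adjusted edgeR p values of 0.60 to 0.98, and DESeq2 called 0 of the 9. Log2 fold changes below are niclosamide over vehicle, given with their standard error (SE) or 95% interval, and describe differences that did not pass the threshold.

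All 9 genes had a log2 fold change below 0, with a median of -0.38 and a range of -1.16 to -0.12, where 46.3% of all tested genes lay below 0 and their median was 0.02. The groups did not overlap, with niclosamide lower, in 3 of the 9 (*Aldh1a2*, *Stra6* and *Rarb*), against 6.37% of all tested genes. An unadjusted edgeR p under 0.05 with the lower level in niclosamide was found for 2 of the 9 (*Aldh1a2* and *Stra6*), against 3.55% of all tested genes. The 9 genes share libraries and a pathway and are not independent of each other. They were also chosen with earlier results of these data known. The shares over all tested genes are therefore given for scale only and do not test whether the 9 stand out. The count below 0 was 8 without niclosamide 1, 7 without niclosamide 3 and 8 without vehicle 1, where the median of the 9 was -0.18, and the unadjusted p of *Stra6* stayed under 0.05 only without niclosamide 2 among the 6 fits that left a library out. *Dhrs3* had an unadjusted p under 0.05 without vehicle 2 alone. In these bulk samples, fewer cells of a type and less RNA per cell cannot be told apart.

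**Figure D1:**
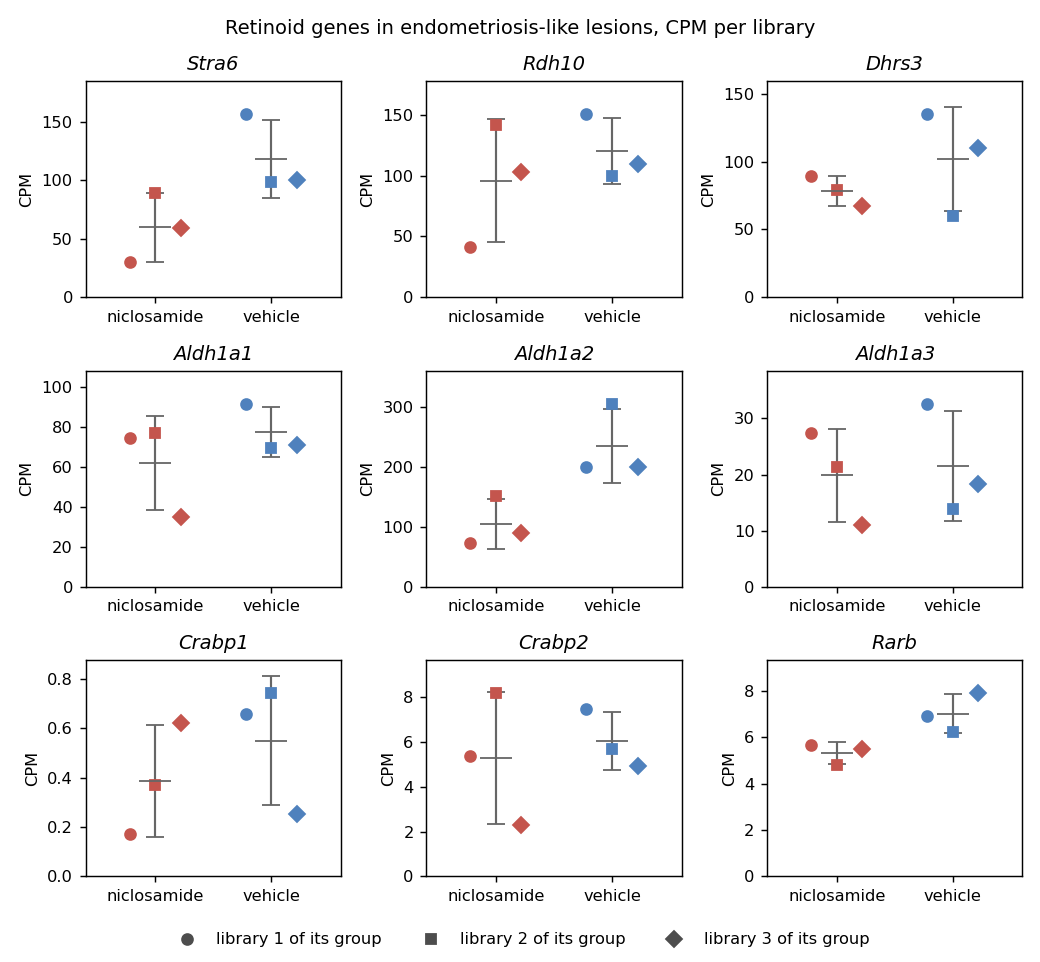
CPM of the 9 retinoid genes in each library (points, with a marker per library), with the group mean and SD (grey bars, n = 3 each). Niclosamide libraries lie below all vehicle libraries for Stra6, Aldh1a2 and Rarb, and the groups overlap for the other 6 genes.

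**Figure D2:**
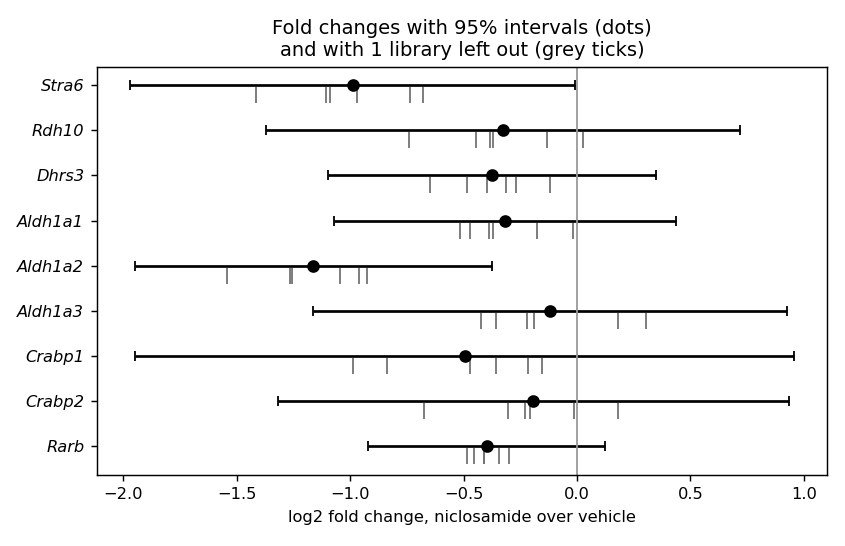
Log2 fold change of niclosamide over vehicle for each of the 9 retinoid genes (dots), with its 95% interval, and the values when 1 library is left out (grey ticks). All dots lie below 0, and the intervals of Aldh1a2 and Stra6 alone end below 0 before any adjustment for the number of genes.

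Uptake was represented by *Stra6*, which encodes the cell-surface receptor for retinol-binding protein (chromosome 9, 58063793 to 58154187, plus strand, GRCm38.p3, measured over its annotated exons). *Stra6* had 30.2, 89.2 and 59.3 CPM in niclosamide 1 to 3, against 157, 98.1 and 100 CPM in vehicle 1 to 3. The highest niclosamide library lay just under the lowest vehicle library, and niclosamide 1 stood well below the others. Means were 59.6 ± 29.5 CPM with niclosamide and 118 ± 33.2 CPM with vehicle (SD, n = 3 each), a log2 fold change of -0.99 ± 0.41 (SE; edgeR quasi-likelihood, Benjamini-Hochberg adjusted p = 0.72).

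The first, reversible step is shared by *Rdh10* and *Dhrs3*, whose products run it in opposite directions. *Rdh10* (chromosome 1, 16105780 to 16133734, plus strand) had 41.7, 142 and 103 CPM in niclosamide 1 to 3 and 151, 100 and 110 CPM in vehicle 1 to 3. Niclosamide 1 was far below the other 5 libraries, which overlapped between groups. The log2 fold change of -0.33 ± 0.43 (SE) became 0.026 without niclosamide 1. *Dhrs3* (chromosome 4, 144892609 to 144927645, plus strand) had 89.1, 78.8 and 67.1 CPM in niclosamide 1 to 3, and 135, 59.9 and 110 CPM in vehicle 1 to 3. Its niclosamide values were close together and lay within the vehicle range, so that the log2 fold change of -0.38 had a 95% interval of -1.10 to 0.35. The *Dhrs3* value was -0.12 without vehicle 1, the highest of all libraries, and -0.65 without vehicle 2, the lowest. The log2 ratio of *Rdh10* to *Dhrs3*, each per kilobase of exon, was -1.39, 0.56 and 0.34 in niclosamide 1 to 3 and -0.13, 0.45 and -0.29 in vehicle 1 to 3. Niclosamide 1 had the lowest ratio, and the groups overlapped.

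The committed step held the largest fold change among the 9 genes. *Aldh1a2* (chromosome 9, 71215789 to 71296243, plus strand) encodes RALDH2, the main retinoic acid-producing enzyme of the mouse embryo and of many mesenchymal and mesothelial tissues. It had 72.8, 152 and 89.8 CPM in niclosamide 1 to 3, against 200, 306 and 199 CPM in vehicle 1 to 3. Every niclosamide library lay below every vehicle library. The means were 105 ± 41.9 CPM with niclosamide and 235 ± 61.5 CPM with vehicle (SD, n = 3 each). The log2 fold change was -1.16 ± 0.33 (SE), with a 95% interval of -1.95 to -0.38, and the Benjamini-Hochberg adjusted p was 0.60 by edgeR and 0.10 by DESeq2. With 1 library left out the value ran from -1.54 (without niclosamide 2) to -0.92 (without vehicle 2). Its unadjusted p was under 0.05 in all 13 alternatives, and its adjusted p ran from 0.10 to 1 over them.

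Both paralogs overlapped between groups. *Aldh1a1* (chromosome 19, 20601982 to 20643462, plus strand), which encodes RALDH1, had 74.6, 76.9 and 34.9 CPM in niclosamide 1 to 3 and 91.8, 69.7 and 70.8 CPM in vehicle 1 to 3. The low value of niclosamide 3 set the difference, since the log2 fold change of -0.32 ± 0.31 (SE) became -0.02 without that library. *Aldh1a3* (chromosome 7, 66390892 to 66427477, minus strand), which encodes RALDH3, had 27.4, 21.3 and 11.0 CPM in niclosamide 1 to 3 and 32.6, 13.9 and 18.3 CPM in vehicle 1 to 3. Its groups overlapped widely, and its log2 fold change of -0.12 ± 0.43 (SE) turned to 0.18 without niclosamide 3 and to 0.31 without vehicle 1. In the mouse *Aldh1a1* has a close copy, *Aldh1a7*. Of the 50-base stretches in annotated *Aldh1a1* transcripts (GENCODE M21), 3.06% also occur in *Aldh1a7*. *Aldh1a7* itself had 3.94, 0.31 and 1.21 CPM in niclosamide 1 to 3 and 2.44, 1.35 and 0.72 CPM in vehicle 1 to 3. *Aldh1a2* shared no such stretch with another gene (0 of 2215).

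Set side by side per length of exon, *Aldh1a2* was the leading *Aldh1a* transcript in 5 of the 6 libraries. It made up 41.8%, 60.4% and 66.0% of the summed *Aldh1a1*, *Aldh1a2* and *Aldh1a3* level in niclosamide 1 to 3, and 61.7%, 77.9% and 68.6% in vehicle 1 to 3. *Aldh1a1* made up 47.7%, 34.0% and 28.6% in niclosamide 1 to 3 and 31.6%, 19.8% and 27.2% in vehicle 1 to 3. In niclosamide 1 *Aldh1a1* exceeded *Aldh1a2*, and for both shares the groups overlapped. The summed level was 77.0, 111 and 60.1 CPM per kilobase in niclosamide 1 to 3 and 143, 174 and 128 CPM per kilobase in vehicle 1 to 3, without overlap. These are transcript levels and do not measure enzyme activity or retinoic acid.

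**Figure D3:**
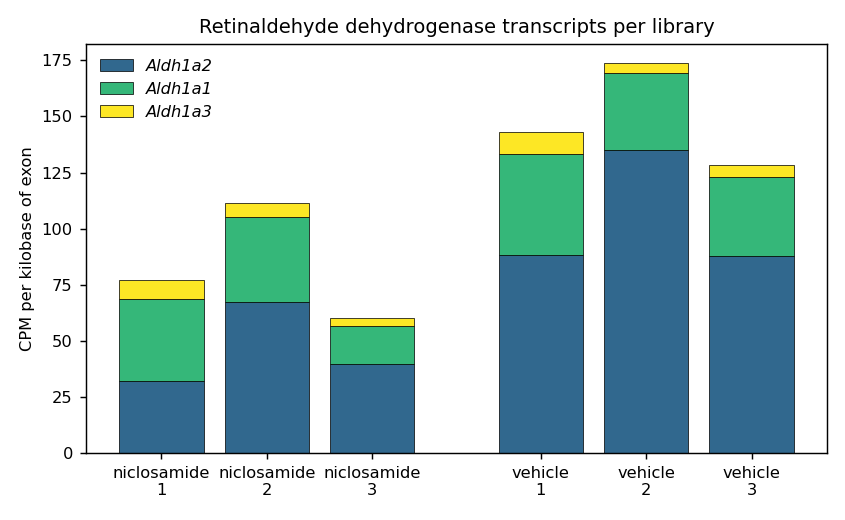
Level of Aldh1a2, Aldh1a1 and Aldh1a3 in each library as stacked bars, in CPM per kilobase of exon. The summed level is 60.1 to 111 in the 3 niclosamide libraries and 128 to 174 in the 3 vehicle libraries, and most of the difference in height lies in the Aldh1a2 part.

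The transcripts of the retinoic acid carriers were few. *Crabp2* (chromosome 3, 87948693 to 87953372, plus strand), which delivers retinoic acid to its nuclear receptors, had 5.37, 8.16 and 2.27 CPM in niclosamide 1 to 3 and 7.44, 5.69 and 4.93 CPM in vehicle 1 to 3. Niclosamide held both the highest and the lowest library. Its log2 fold change was -0.19, with a 95% interval of -1.32 to 0.94, and it was 0.18 without niclosamide 3. *Crabp1* (chromosome 9, 54764748 to 54773110, plus strand) was near the detection limit, with 5, 12 and 20 counts in niclosamide 1 to 3 and 18, 27 and 8 counts in vehicle 1 to 3, all under 1 CPM. Its groups overlapped, and its log2 fold change of -0.50 had a 95% interval of -1.95 to 0.96. It was -0.15 without niclosamide 1 and -0.21 without vehicle 2, but -0.99 without niclosamide 3 and -0.84 without vehicle 3. *Fabp5*, whose product can carry retinoic acid to the receptor PPAR-delta, had a higher level per length, at 59.5 to 232 CPM per kilobase over the 6 libraries, where *Crabp2* had 2.52 to 9.07. It had 220.6, 117 and 89.5 CPM in niclosamide 1 to 3 and 110, 56.7 and 62.8 CPM in vehicle 1 to 3. Its log2 fold change was 0.89 ± 0.41 (SE; edgeR adjusted p = 0.77), with overlap through niclosamide 3 and vehicle 1, and it was 0.42 without niclosamide 1.

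*Rarb* encodes retinoic acid receptor beta and is among the best-known direct targets of retinoic acid (chromosome 14, 16430839 to 17082331, minus strand). It had 5.68, 4.79 and 5.47 CPM in niclosamide 1 to 3, against 6.93, 6.21 and 7.89 CPM in vehicle 1 to 3. The groups did not overlap, and the counts were 155 to 176 reads per niclosamide library and 190 to 251 per vehicle library. The log2 fold change was -0.40 ± 0.22 (SE), with a 95% interval of -0.92 to 0.12 (edgeR adjusted p = 0.81). With 1 library left out it stayed between -0.48 and -0.30, the narrowest such range among the 9 genes. The widely expressed receptor genes *Rara* and *Rarg* had higher levels per kilobase of exon than *Rarb* in every library, at 5.85 to 7.87 for *Rara* and 11.2 to 17.4 for *Rarg*, against 1.27 to 2.09 for *Rarb*. *Rarg* had 40.0, 50.7 and 43.3 CPM in niclosamide 1 to 3 and 62.0, 53.5 and 52.3 CPM in vehicle 1 to 3, without overlap (log2 fold change -0.32 ± 0.14 SE, edgeR adjusted p = 0.74). *Rara* overlapped between groups, at 28.3 to 33.3 CPM with niclosamide and 32.0 to 38.1 CPM with vehicle.

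Retinoic acid receptors are known to bind a direct repeat of a 6-base half-site with 5 bases between the copies (DR5). The half-site could be AGGTCA, or the variant AGTTCA, or the variant GGGTCA, or the variant GGTTCA. Repeats of these in any combination, on either strand, were searched in RefSeq promoter sequences (GRCm38.p6, 250 bases before to 50 after a start). Promoters were present for 6 of the 9 genes (12 promoters), and *Rarb* was the only 1 with a match. *Cyp26a1*, the retinoic acid hydroxylase gene described below, also had one. Such a match was found in 32 of 32851 promoters (0.0974%), and it is a description of the letters, not of binding in these lesions. The 250 bases before each start are shown for *Rarb* and *Cyp26a1* because their promoters carry the repeat, which is in capitals. Of the genes described here, matches were looked up only for the 9 genes and *Cyp26a1*. In *Rarb* (chr14:16575477-16575726, minus strand) it spans bases -53 to -37 from the start, and in *Cyp26a1* (chr19:37697558-37697807, plus strand) bases -32 to -16, where it reads on the opposite strand.
Rarb: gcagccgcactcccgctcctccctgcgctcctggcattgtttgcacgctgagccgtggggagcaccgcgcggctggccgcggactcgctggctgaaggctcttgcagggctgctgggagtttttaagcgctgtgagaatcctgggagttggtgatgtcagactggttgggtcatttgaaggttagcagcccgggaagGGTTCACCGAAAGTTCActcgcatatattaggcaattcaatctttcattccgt
Cyp26a1: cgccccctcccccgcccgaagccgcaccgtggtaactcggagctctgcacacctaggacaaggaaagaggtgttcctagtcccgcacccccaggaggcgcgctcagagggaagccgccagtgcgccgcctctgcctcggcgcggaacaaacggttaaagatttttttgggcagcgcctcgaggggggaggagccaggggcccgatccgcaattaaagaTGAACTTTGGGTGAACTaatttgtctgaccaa

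Among the genes of retinoic acid clearance, 1 library stood apart. *Cyp26a1*, which encodes the hydroxylase that clears retinoic acid and is known to be induced by it, had 1.16, 1.58 and 111 CPM in niclosamide 1 to 3 and 2.30, 0.71 and 0.60 CPM in vehicle 1 to 3. The high value was confined to niclosamide 3 among the 6 libraries, and the other 5 overlapped between groups. The log2 fold change of 4.99 ± 1.95 (SE; edgeR adjusted p = 0.70) was 0.20 without niclosamide 3. In that same library *Aldh1a1*, *Aldh1a3*, *Dhrs3* and *Crabp2* had their lowest niclosamide value and *Lrp2*, the megalin endocytic receptor gene, had 119 CPM, against 2.45 and 1.76 CPM in niclosamide 1 and 2 and 1.51 to 6.27 CPM with vehicle. *Cyp26b1*, the hydroxylase of many mesenchymal tissues, had 4.15, 8.22 and 2.24 CPM in niclosamide 1 to 3 and 6.42, 4.59 and 5.37 CPM in vehicle 1 to 3, and *Cyp26c1* stayed under 0.1 CPM in all 6 libraries and was not tested.

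Of 57 other retinoid genes, listed by role, 45 were tested and 0 passed the threshold by edgeR in either direction, while 4 had an unadjusted edgeR p under 0.05 with niclosamide lower (*Adh1*, *Adh7* and *Meis1* among them) and 1 with niclosamide higher (*Cyp26a1*). Over all tested genes the same counts were 617 of 17364 lower (3.55%) and 585 higher (3.37%). DESeq2 called 1 of them, *Adh1*. Among 16 other retinol and retinal dehydrogenases, 12 were tested, 7 of them with a log2 fold change below 0 (median -0.07). *Adh1*, the class I alcohol dehydrogenase gene whose product also oxidizes retinol, had 28.8, 37.2 and 29.4 CPM in niclosamide 1 to 3, against 53.7, 198 and 127 CPM in vehicle 1 to 3. Its groups did not overlap, and its log2 fold change was -1.99 ± 0.46 (SE; edgeR adjusted p = 0.54), which DESeq2 called lower (adjusted p = 0.0048). Over the 13 alternatives the adjusted p of *Adh1* ran from 0.0048 to 1, and the value was -1.51 without vehicle 2. *Adh7*, which encodes the class IV retinol dehydrogenase, also lay lower without overlap (log2 fold change -1.39 ± 0.47 SE, edgeR adjusted p = 0.65), at no more than 1.70 CPM in any library. *Rdh14* had 24.1 ± 5.43 CPM with niclosamide and 20.9 ± 2.42 CPM with vehicle.

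Of 12 carrier, storage and carotenoid genes 8 were tested, with 3 below 0 and a median log2 fold change of 0.32. Without niclosamide 3 there were 4 below 0, with a median of -0.05, and without niclosamide 1 there were 4, with a median of 0.19. *Bco2*, a carotenoid-cleaving enzyme gene, had 4.32, 4.14 and 3.48 CPM in niclosamide 1 to 3 and 3.10, 2.86 and 2.58 CPM in vehicle 1 to 3, without overlap and with niclosamide higher (log2 fold change 0.48 ± 0.25 SE, edgeR adjusted p = 0.79; 5.9% of all tested genes lay apart in this direction). All 13 other receptor, partner and coregulator genes were tested, 7 below 0, with a median of -0.01. Of 17 other genes known to be induced by retinoic acid 14 were tested, 8 below 0, with a median of -0.11. *Rarb*, *Stra6*, *Dhrs3* and *Crabp2*, also known to be induced by it, are not in that list, and each lay below 0. With each library left out in turn, these medians ran from -0.23 to 0.03 for the dehydrogenases, from -0.08 to 0.10 for the receptors and partners and from -0.31 to 0.18 for the induced genes, on both sides of 0. The receptors and partners below 0 numbered 12 of 13 without niclosamide 1 and 3 of 13 without niclosamide 3. *Meis1*, a homeobox gene of that list, had 39.8, 51.3 and 61.4 CPM in niclosamide 1 to 3, against 77.7, 73.8 and 79.4 CPM in vehicle 1 to 3. Its groups did not overlap (log2 fold change -0.60 ± 0.17 SE, edgeR adjusted p = 0.60).

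**Figure D4:**
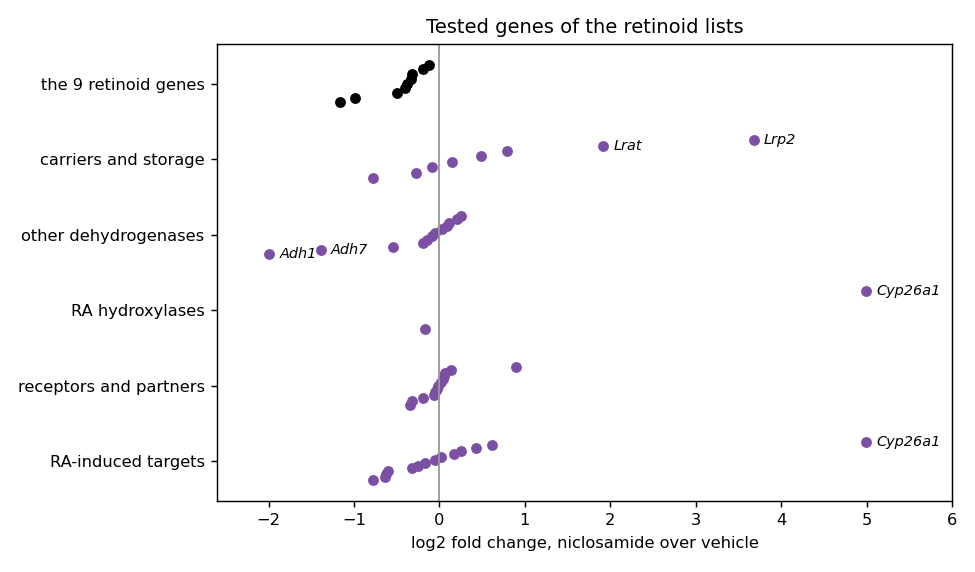
Log2 fold change of niclosamide over vehicle (x axis) for each tested gene of the 9 retinoid genes and of the 5 other retinoid lists (rows), 1 dot per gene; Cyp26a1 stands in 2 lists. All 9 genes lie left of 0, the other lists spread to both sides, and Cyp26a1 and Lrp2 lie far to the right through niclosamide 3 alone.

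On the scale of CPM per kilobase of exon, which allows genes to be compared, the 9 genes kept the same order of means in both groups. *Aldh1a2* was first, with 46.4 ± 18.5 with niclosamide and 104 ± 27.1 with vehicle (SD, n = 3 each). With niclosamide its libraries overlapped those of *Aldh1a1* (30.6 ± 11.6), whereas with vehicle it lay above *Aldh1a1* (38.1 ± 6.12) in all libraries. *Aldh1a1*, *Dhrs3*, *Rdh10* and *Stra6* followed, and each overlapped its neighbour in both groups. *Stra6* had 13.3 ± 6.59 with niclosamide and 26.5 ± 7.41 with vehicle, and it lay clear of *Crabp2* in the vehicle group only. *Crabp2* and *Aldh1a3* overlapped (5.85 ± 3.27 and 5.85 ± 2.43 with niclosamide, 6.69 ± 1.43 and 6.35 ± 2.88 with vehicle). *Rarb* (1.41 ± 0.12 with niclosamide and 1.86 ± 0.22 with vehicle) and *Crabp1* (0.48 ± 0.28 and 0.69 ± 0.33) came last, each apart from its neighbours.

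The niclosamide libraries also differed among themselves. Niclosamide 1 was the lowest of the 6 libraries for *Aldh1a2*, *Rdh10*, *Crabp1* and *Stra6*, and niclosamide 3 for *Aldh1a1*, *Aldh1a3* and *Crabp2*. Among the niclosamide libraries niclosamide 2 was the highest for *Aldh1a1*, *Aldh1a2*, *Rdh10*, *Crabp2* and *Stra6*. Vehicle 1, the pool of 4 mice, was the highest of the 6 libraries for *Aldh1a1*, *Aldh1a3*, *Rdh10*, *Dhrs3* and *Stra6*.

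**Figure D5:**
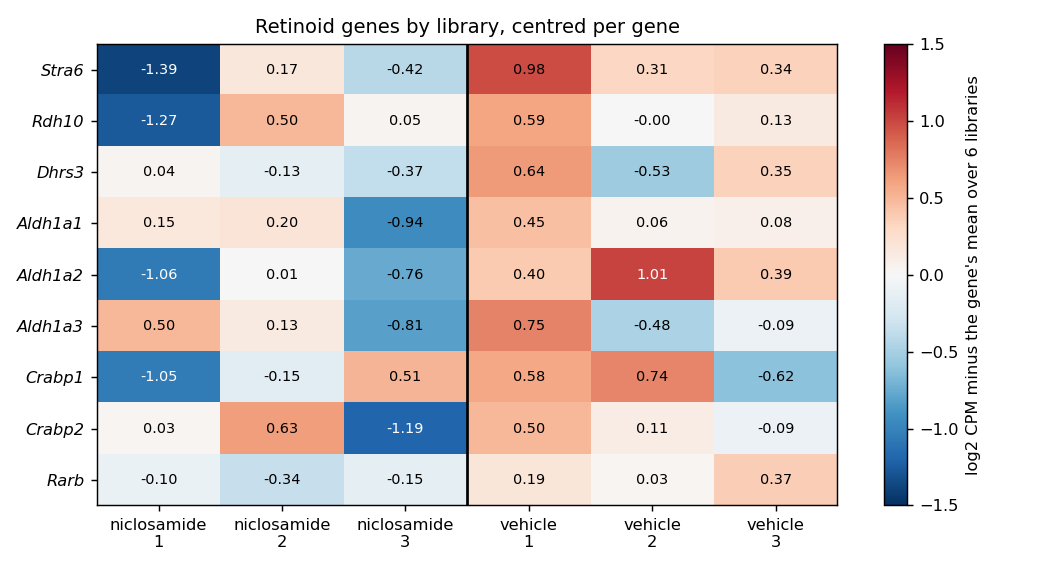
Log2 CPM of each retinoid gene (rows) in each library (columns) minus the gene's mean over the 6 libraries, as colour and number. Niclosamide 1 is low for Stra6 (-1.39), Rdh10 (-1.27), Aldh1a2 (-1.06) and Crabp1 (-1.05), and niclosamide 3 for Crabp2 (-1.19) and Aldh1a1 (-0.94).

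Markers of the cells the lesions could hold also varied between libraries, and their part in the results was not tested. The summed level of 20 uterine epithelial markers was 976, 7564 and 2210 CPM in niclosamide 1 to 3 and 7947, 4228 and 4954 CPM in vehicle 1 to 3. Of these 20 markers 18 had a log2 fold change below 0 and 2 above, and the sums overlapped between groups. Niclosamide 1 and 3 were the lowest in these markers. Among the retinoid genes, niclosamide 1 was the lowest library for *Aldh1a2*, *Rdh10*, *Crabp1* and *Stra6*, and niclosamide 3 for *Aldh1a1*, *Aldh1a3* and *Crabp2*. In niclosamide 1, *Aldh1a3*, *Aldh1a1*, *Dhrs3* and *Crabp2* lay above their own mean over all libraries, by 0.50, 0.15, 0.04 and 0.03 in log2 CPM. The 12 neutrophil markers were lowest in niclosamide 1 and 3 and highest in vehicle 1. They summed to 574, 3683 and 1393 CPM in niclosamide 1 to 3 and 5412, 2438 and 4129 CPM in vehicle 1 to 3. Of 11 tested 8 lay below 0. *Ltf* is in both the epithelial and the neutrophil list, so these sums are not independent. Its part in either sum was not tested. The 12 macrophage markers, 11 of them above 0, summed to 4637 to 9213 CPM with niclosamide and 2926 to 5632 CPM with vehicle, with overlap. The 14 skeletal muscle markers, of the recipient wall, summed to 43113, 1030 and 14382 CPM in niclosamide 1 to 3 and 5668, 14289 and 14849 CPM in vehicle 1 to 3. All 14 had a log2 fold change above 0, and the sums overlapped between groups. The 15 uterine stromal markers summed to 11816, 13115 and 16801 CPM in niclosamide 1 to 3 and 14493, 14185 and 14809 CPM in vehicle 1 to 3, a much narrower spread that overlapped between groups. Of these 15 markers 8 had a log2 fold change below 0 and 7 above. All 12 smooth muscle markers had a log2 fold change below 0, and their sum was 2407 to 6244 CPM with niclosamide and 7194 to 9985 CPM with vehicle, without overlap. The 16 T and NK cell markers were all above 0 and summed to 688 to 1022 CPM with niclosamide and 417 to 483 CPM with vehicle, without overlap. Of the 6 structural RNAs, a sign of library composition, 5 were tested and all 5 lay below 0, and the sums overlapped, at 1827 to 6475 CPM with niclosamide and 5840 to 10504 CPM with vehicle.

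Mesothelium also expresses *Aldh1a2*. The 11 mesothelial markers, none under 1 CPM in all libraries, summed to 204, 279 and 155 CPM in niclosamide 1 to 3 and to 376, 131 and 196 CPM in vehicle 1 to 3. For this sum vehicle 1 was the highest and vehicle 2 the lowest, and the groups overlapped. Single mesothelial genes spread unequally. *Upk3b* ran from 3.08 CPM (niclosamide 3) to 57.1 CPM (vehicle 1), and *Lrrn4* from 3.05 CPM (vehicle 2) to 40.8 CPM (vehicle 1). *Msln* ran from 5.35 CPM (niclosamide 3) to 34.99 CPM (niclosamide 2), and *Wt1* only from 62.1 CPM (vehicle 2) to 91.8 CPM (niclosamide 3). The sum hides this unevenness. *Wt1* held 91.8 of the summed 155 CPM in niclosamide 3 and 62.1 of the summed 131 CPM in vehicle 2. Which cells expressed *Wt1* was not tested, nor was the part of mesothelium in the *Aldh1a2* level. *Aldh1a2* is also known in dendritic cells of the gut, and the 12 dendritic cell markers, 11 of them with a log2 fold change above 0, summed to 401 to 801 CPM with niclosamide and 378 to 504 CPM with vehicle.

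By profile, 3 genes were closest to *Aldh1a2* among the 14025 genes with a mean log2 CPM of at least 1. The measure was the root mean square difference of log2 CPM over the 6 libraries after each gene was centred on its own mean. *Ror2*, a receptor gene for Wnt5a, came first at 0.11, with 29.2, 49.98 and 35.4 CPM in niclosamide 1 to 3 and 67.9, 114 and 67.2 CPM in vehicle 1 to 3. *Dlgap1* followed at 0.19 and *Ctr9* at 0.20. With 6 libraries many genes share an order, so this likeness is a description only.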

How the data were processed

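RNA-seq counts of 6 libraries were used, 3 niclosamide and 3 vehicle. Per the file headers, exonic reads were counted by the authors using featureCounts 1.4.6-p4 (reverse-stranded) on STAR alignments to GRCm38.p3, and the deposited values are whole-number counts per gene symbol with no normalization. Exon lengths, in bases, came from the same deposited files. Per the submitters' processing notes, bcl2fastq 1.8.4, Trimmomatic 0.33 and STAR 2.4.2a were also used. Reads that align to several places were not counted by that counter's defaults, so genes with near-identical copies can be undercounted; shared 50-base stretches were checked in GENCODE M21 transcripts, since the read length is not given in the sources used here.

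Genes were kept by filterByExpr (minimum count 10, minimum total 15), scaled by TMM and tested with edgeR 4.0.16 (quasi-likelihood, robust, group as the only term) in R 4.3.3, with DESeq2 1.42.0 and limma 3.58.1 as alternatives. The procedure was also run on simulated counts with known changes. The outcome is not given here, so how often true changes would be missed is not stated. SE is the size of the log2 fold change divided by the root of F, and log2 CPM used a prior count of 2. A count of 0 allows up to 3 counts (0.0862 to 0.108 CPM of the raw totals), for counting error only. The genes and lists were chosen with earlier results of these data known. Named were the 9 genes, all hydroxylases and the 3 genes with the smallest p of each other retinoid list. The 3 nearest profiles to the member with the smallest p were named too. *Rara*, *Hoxa10*, *Aldh1a7* and the mesothelial genes *Upk3b*, *Lrrn4*, *Msln* and *Wt1* were added later. Some genes that this rule took are left out of the text.

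Title numbers were checked as pairs. Deviations from the group means correlated at -0.085, -0.088 and 0.27 for numbers 1 to 3, and at -0.36 to 0.36 for unlike numbers. So few correlations cannot decide whether the numbers pair the libraries. The titles do not say that they do, and the main fit was unpaired.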

Additional observations from a re-analysis of the deposited data

How the results depend on the processing

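Over 13 alternatives (RLE and upper quartile scaling, DESeq2, limma-voom, no filter, CPM of at least 1 in 3 libraries, a replicate block and each library left out), 0 of the 9 retinoid genes passed the threshold. Over all genes the count past the threshold was 178 with DESeq2 and 1 with no filter on low counts, and 0 otherwise. The counts of the 9 genes below 0 and of those with an unadjusted p under 0.05 were added after seeing the data. The count with an unadjusted p under 0.05 was 2, but 1 with no filter and 1 with the replicate block, and 1 to 2 with each library left out; below 0 it was 8 with the stricter filter, under which *Crabp1* was not tested, and 7 to 9 with each library left out. The direction turned without niclosamide 3 for *Aldh1a3* (0.18), *Crabp2* (0.18), *Cyp26b1* (0.20) and *Lrp2* (-0.61), without vehicle 1 for *Aldh1a3* (0.31), and without niclosamide 1 for *Rdh10* (0.026). With each library left out the range was -0.42 to 0.31 for *Aldh1a3*, -0.67 to 0.18 for *Crabp2*, -0.79 to 0.20 for *Cyp26b1*, -0.61 to 4.58 for *Lrp2* and -0.74 to 0.026 for *Rdh10*; leaving 1 library out leaves fewer samples, and no other cause was tested. DESeq2 called *Adh1* (-1.98). Of 271 values of named genes, 264 kept their direction and side of the threshold. DESeq2 gave no adjusted p for *Cyp26a1* and *Lrp2*, and the 264 count these as not passing. With the replicate block, whose numbers are not said to pair the libraries, the log2 fold change of *Aldh1a2* was -1.20 and 0 genes passed. In the check of the numbers, 2 of 6 libraries correlated best with their own number. Scaling moved the median over all genes by less than 0.1. *Crabp1* had 5 to 27 counts per library, so its value rests on few reads. The medians of the retinoid lists with each library left out were added after seeing the data.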

Other observations

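The high *Cyp26a1* value of niclosamide 3 had company, which was looked for after its values were seen. The profiles closest to it over the 6 libraries were those of *Lrp2*, *Sult1d1*, a sulfotransferase gene, and *S100g*, the calbindin-D9k gene of uterine epithelium. *Sult1d1* had 2.96, 2.504 and 108 CPM in niclosamide 1 to 3 and 3.68, 1.26 and 2.99 CPM in vehicle 1 to 3, and *S100g* had 1.05, 7.36 and 177 CPM in niclosamide 1 to 3 and 10.6, 2.55 and 4.84 CPM in vehicle 1 to 3. *Lrat*, the retinol-esterifying enzyme gene, was also highest there, at 4.76 CPM, against 0.20 and 0.49 CPM in niclosamide 1 and 2 and 0.19 to 0.82 CPM with vehicle. These values come from 1 library, and none of these genes passed the threshold.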
